A study of Mus musculus with 12 samples.

Results

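The 9 genes described here code for receptors, adaptors and effectors of innate immune sensing: Tlr2, Tlr4, Myd88, Nlrp3, Pycard, Casp1, Casp4, Gsdmd and Aim2. They were chosen by symbol, as a named set from the Toll-like receptor and inflammasome pathways, and all 9 were found among the 23282 lines of the count table. The counts come from 12 MC38 tumors in 4 groups of 3. MC38 is a mouse colon carcinoma line, and it had been implanted under the skin of female C57BL/6 mice that were 6 weeks old and are labelled WT. Con mice received saline and an IgG2a control antibody, SFIH mice 50 mg/kg of a sesquiterpene lactone-rich fraction of Inula helenium each day, PD mice 200 μg of anti-PD-1 antibody per injection, and Comb mice both agents. All tumors were from day 19, all injections were intraperitoneal, and the model rests on a single cell line. RNA was extracted from tumor tissue, although the labels name tumor cells, so the values sum over every cell type in the tumor. The question was how either agent, and their combination, moved these genes.

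Toll-like receptors (TLRs) bind microbial molecules and products of damaged cells. TLR2 and TLR4 sit on the cell surface and pass the signal to MyD88, an adaptor that recruits kinases and leads to NF-κB activation, with inflammatory genes such as those of the interleukin-1 family among the targets. Inflammasomes are assembled in the cytosol when a sensor such as NLRP3 or AIM2 recruits ASC, the adaptor coded by Pycard, which then gathers caspase-1. Active caspase-1 matures interleukin-1β and interleukin-18 and cuts gasdermin D, whose fragments form pores in the plasma membrane. Mouse caspase-11, coded by Casp4, cuts gasdermin D after it has bound bacterial lipopolysaccharide in the cytosol. In tumors, macrophages, neutrophils and dendritic cells express many of these genes, and some are also expressed by cancer cells.

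Promoter windows from RefSeq on GRCm38.p6, which reach from 250 bases before to 50 bases after a transcription start, were found for 7 of the 9 genes. The windows of Myd88, Pycard, Aim2 and Casp4 are printed 5′ to 3′ on the strand of the gene, since Myd88 and Pycard were called higher in Comb by DESeq2 and Casp4 and Aim2 had differences of the opposite sign. Capitals mark matches to the motifs searched on both strands.
Myd88, chr9:119339969-119340268, minus strand: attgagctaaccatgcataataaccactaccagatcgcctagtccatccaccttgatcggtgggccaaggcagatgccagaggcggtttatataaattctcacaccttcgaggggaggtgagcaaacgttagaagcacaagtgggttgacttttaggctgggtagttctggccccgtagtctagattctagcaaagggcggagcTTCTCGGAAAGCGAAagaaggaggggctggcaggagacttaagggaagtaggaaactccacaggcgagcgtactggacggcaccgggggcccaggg
Pycard, chr7:127993818-127994117, minus strand: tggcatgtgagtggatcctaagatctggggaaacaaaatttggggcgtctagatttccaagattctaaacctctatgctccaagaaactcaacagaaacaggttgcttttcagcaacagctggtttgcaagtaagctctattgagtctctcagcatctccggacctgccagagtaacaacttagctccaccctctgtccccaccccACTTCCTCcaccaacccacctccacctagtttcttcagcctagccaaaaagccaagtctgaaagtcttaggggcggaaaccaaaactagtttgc
Aim2, chr1:173420354-173420653, plus strand: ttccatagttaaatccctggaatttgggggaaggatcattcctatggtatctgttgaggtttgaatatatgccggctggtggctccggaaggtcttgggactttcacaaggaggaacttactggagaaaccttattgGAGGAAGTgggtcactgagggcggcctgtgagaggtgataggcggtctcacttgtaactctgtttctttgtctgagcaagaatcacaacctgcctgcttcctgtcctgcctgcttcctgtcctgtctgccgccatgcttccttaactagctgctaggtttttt
Casp4, chr9:5308599-5308898, plus strand: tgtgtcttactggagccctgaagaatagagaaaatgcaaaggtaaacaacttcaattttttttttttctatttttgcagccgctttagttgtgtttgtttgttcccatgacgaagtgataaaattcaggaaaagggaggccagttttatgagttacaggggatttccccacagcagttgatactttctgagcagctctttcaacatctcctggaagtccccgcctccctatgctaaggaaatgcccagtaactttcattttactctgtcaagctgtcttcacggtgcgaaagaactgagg
The 3 motifs were TTCNNNGAA (the gamma interferon activated site), GAAANNGAA (the core of the interferon-stimulated response element) and GAGGAAGT (a core bound by the macrophage and B cell factor PU.1). The Myd88 window held TTCNNNGAA and GAAANNGAA, starting at positions -46 and -40 from the start site and sharing bases with each other. The Pycard window held the PU.1 core on the opposite strand from position -44, and the Aim2 window held it from position -113. None of the 3 motifs was written in the windows of Tlr2, Nlrp3, Casp1 or Casp4. Among 32851 windows of this length, TTCNNNGAA was in 8.3%, GAAANNGAA in 8.56% and GAGGAAGT in 3.2%, and 18.5% held at least 1 of the 3. The matches describe letters in these windows and were not tested for binding.

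Total counts per tumor ran from 7870741 to 12261032. Levels are given as CPM, counts relative to the library total, scaled by the TMM method, which sets a common scale from the bulk of genes. A tag is read from the 3′ end of each transcript, so CPM was compared between tumors and not between genes. Comb replicate 3 stood apart from the other tumors. It had the lowest TMM factor, 0.760 against up to 1.12, and a summed level of 10 skeletal muscle markers of 8214 CPM, where Comb replicate 1 had 830.2 CPM and the other 10 tumors between 5.11 and 180.0 CPM. The proliferation markers Mki67 and Top2a were at 23.4 and 63.6 CPM in it, where no other tumor was under 211 and 885 CPM. The epithelial markers Krt8 and Epcam were at 30.5 and 10.2 CPM in it and did not exceed 2.99 and 2.53 CPM in any other tumor. The differences of the 9 genes between Comb and Con are also given without this tumor.

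Tlr2, a receptor for bacterial lipoproteins, was at 7.81, 3.11 and 8.48 CPM in Con, 7.71, 6.46 and 5.52 CPM in SFIH, 5.45, 12.5 and 12.3 CPM in PD and 4.95, 17.8 and 15.6 CPM in Comb. Replicate 1 of PD and of Comb lay within the range of Con, while the other anti-PD-1 tumors lay above it. The counts behind these levels were between 31 and 155.

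Tlr4, the receptor for lipopolysaccharide, was at 9.47, 5.82 and 8.66 CPM in Con, 8.80, 9.06 and 9.07 CPM in SFIH, 7.58, 12.0 and 7.30 CPM in PD and 7.09, 15.2 and 71.7 CPM in Comb. A single tumor, Comb replicate 3, stood above all others, and 9 of the 12 tumors lay between 7.09 and 12.0 CPM. The lowest Comb tumor lay inside the range of Con.

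Myd88 was at 49.6, 54.3 and 70.9 CPM in Con, 70.1, 66.0 and 60.9 CPM in SFIH, 88.9, 76.5 and 71.2 CPM in PD and 92.7, 87.8 and 121.3 CPM in Comb. All 6 tumors given anti-PD-1 antibody lay above all 6 without it, by a margin of 71.2 against 70.9 CPM at its narrowest. On CPM without TMM scaling these groups overlapped, since Con replicate 3 was at 79.2 CPM and PD replicate 2 at 71.3 CPM.

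Nlrp3, the sensor of membrane damage and ion efflux, was at 2.11, 1.10 and 1.70 CPM in Con, 2.69, 1.71 and 1.25 CPM in SFIH, 2.46, 3.14 and 1.70 CPM in PD and 2.53, 1.04 and 5.05 CPM in Comb. The highest and the lowest of the 12 tumors were both in Comb. The counts of Nlrp3, 9 to 42 in a tumor, were the fewest of the 9 genes.

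Pycard was at 20.4, 11.3 and 26.3 CPM in Con, 25.5, 19.9 and 20.7 CPM in SFIH, 20.2, 44.5 and 17.6 CPM in PD and 22.6, 56.6 and 173.8 CPM in Comb. It had the widest range of the 9 genes, 15.3-fold between Con replicate 2 and Comb replicate 3. PD replicate 2 and Comb replicates 2 and 3 were above all Con and SFIH tumors, and the remaining anti-PD-1 tumors were not.

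Casp1, the protease at the end of the inflammasome, was at 143, 131 and 150 CPM in Con, 113, 158 and 148 CPM in SFIH, 114, 141 and 123 CPM in PD and 157, 160 and 232 CPM in Comb. The Comb tumors were all above the Con tumors, by a margin of 157 against 150 CPM, and the PD tumors reached into the range of Con from below. Casp4 was at 57.6, 61.7 and 55.3 CPM in Con, 59.1, 60.8 and 58.6 CPM in SFIH, 47.4, 48.8 and 47.2 CPM in PD and 54.9, 53.8 and 45.0 CPM in Comb. All 6 tumors with anti-PD-1 antibody were below all 6 without it, also on CPM without TMM scaling, and the whole range of Casp4 over the 12 tumors was 1.37-fold.

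The 2 caspase genes were also set against each other within each tumor, a measure chosen after the values were seen and given without a test. The count of Casp1 divided by the count of Casp4 does not depend on scaling. It ran from 2.13 to 2.71 in Con, from 1.92 to 2.60 under SFIH, from 2.39 to 2.89 in PD and from 2.86 to 5.15 in Comb, where the highest value was that of replicate 3. The PD range overlapped those of Con and Comb.

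Gsdmd, the gene for the pore-forming substrate of these caspases, was at 7.90, 6.42 and 8.30 CPM in Con, 7.28, 9.66 and 8.65 CPM in SFIH, 10.9, 17.9 and 13.1 CPM in PD and 8.74, 24.4 and 56.5 CPM in Comb. The PD tumors were above every Con and SFIH tumor, and Comb replicate 1 fell among the SFIH tumors. Aim2, the sensor of cytosolic double-stranded DNA, was at 103, 86.8 and 72.6 CPM in Con, 57.3, 71.5 and 84.4 CPM in SFIH, 100.3, 83.2 and 104 CPM in PD and 71.4, 91.6 and 44.8 CPM in Comb. Its lowest tumor was Comb replicate 3, the tumor with the highest level of 6 of the other genes, and its groups overlapped in every comparison with Con. On CPM without TMM scaling all Comb tumors were below all Con tumors for Aim2, by a margin of 80.9 against 81.1 CPM.

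**Figure D1:**
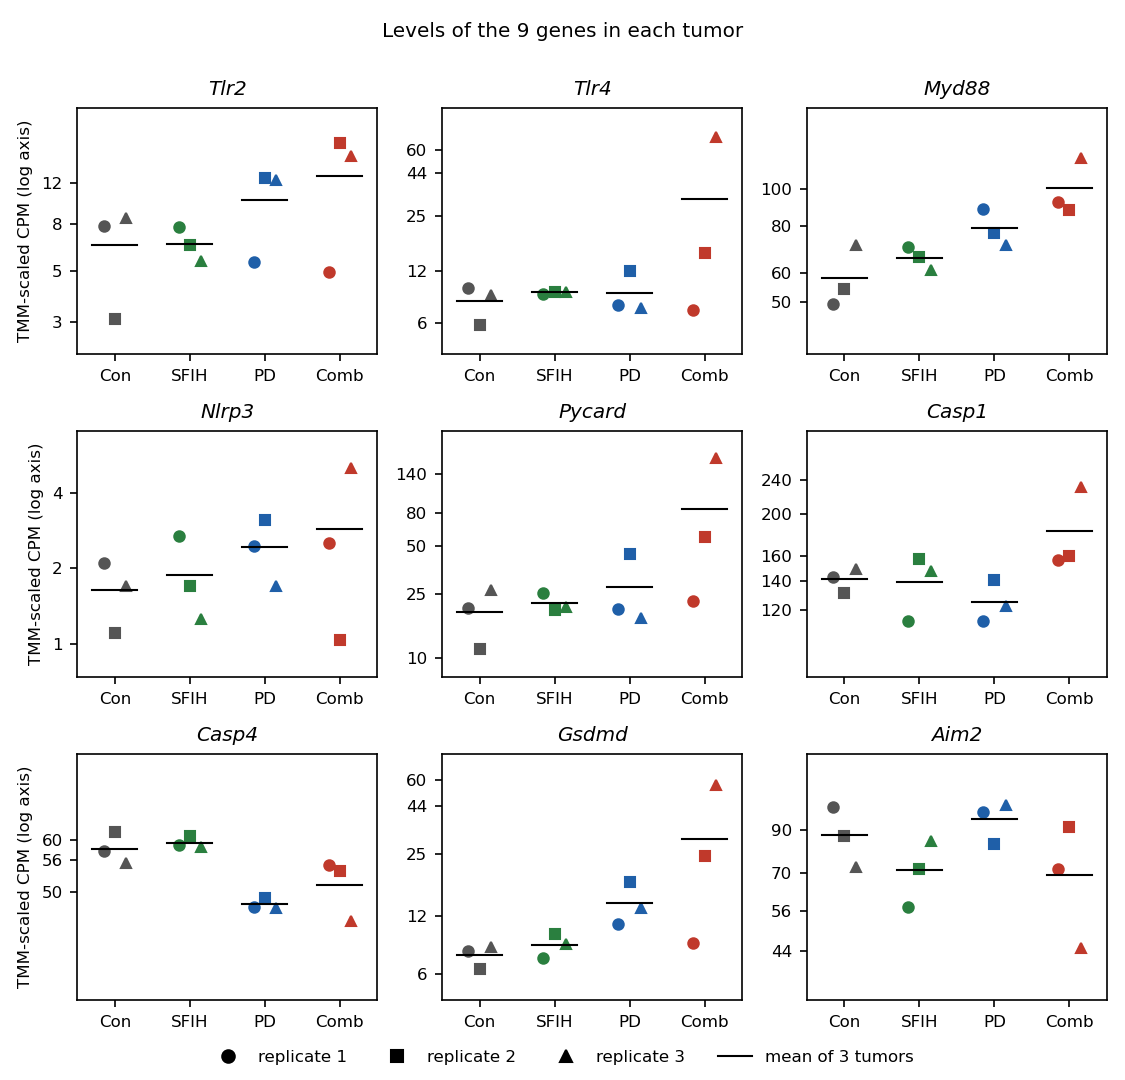
Level of each gene in each of the 12 tumors, in TMM-scaled CPM on a log axis, by group; symbols mark the replicate number and bars the mean of 3 tumors. Comb replicate 3 (triangle) is the highest tumor for Tlr4, Myd88, Nlrp3, Pycard, Casp1 and Gsdmd and the lowest for Casp4 and Aim2, and the PD tumors are below the Con tumors for Casp4.

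Under SFIH alone no member was called. The log2 difference of SFIH from Con was between -0.30 for Aim2 and 0.21 for Nlrp3, with a median of 0.17 over the 9 genes and 0.02 over all 13464 genes tested. By edgeR's quasi-likelihood test, 0 of 9 members had an adjusted p under 0.05, as for 0% of all genes, and 0 of 9 had an unadjusted p under 0.05, against 2.25% of all genes (0 of 9 against 7.49% without Comb replicate 3). DESeq2 also called 0 of 9, against 0.0298% of all genes. The standard errors were 0.14 for Casp4, 0.19 for Myd88 and 0.20 for Casp1, and between 0.51 and 0.65 for Gsdmd, Tlr2, Nlrp3, Pycard and Tlr4, so the latter were measured with less precision.

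Under anti-PD-1 antibody alone no member passed the adjusted threshold, and the difference from Con was highest for Gsdmd and lowest for Casp4. The log2 difference of PD from Con was 0.88 with a standard error of 0.51 for Gsdmd, 0.64 (SE 0.52) for Tlr2, 0.44 (SE 0.19) for Myd88 and -0.28 (SE 0.14) for Casp4. All 9 members had an adjusted p of 0.9998 by edgeR, and 0% of all genes were called. Myd88 was the only member with an unadjusted p under 0.05, 1 of 9 against 3.99% of all genes, and DESeq2 called 0 of 9, against 0.0447%. Myd88 and Gsdmd were higher in PD than in Con without overlap, 2 of 9 against 9.42% of all genes, and Casp4 was lower without overlap, 1 of 9 against 9.36%. Without TMM scaling Gsdmd was higher without overlap, 1 of 9 against 5.76% of all genes, and Casp1 and Casp4 were lower, 2 of 9 against 14.8%. Without Comb replicate 3, which is in neither group but enters the shared estimate of the spread, Myd88, Casp4 and Gsdmd had an unadjusted p under 0.05, 3 of 9 against 10.7% of all genes, and edgeR again called 0 of 9.

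In the combination the differences from Con were largest for Pycard, Gsdmd and Tlr4, whose products assemble inflammasomes, form pores and sense lipopolysaccharide. The log2 difference of Comb from Con was 2.12 (SE 0.64) for Pycard, 1.98 (SE 0.52) for Gsdmd and 1.97 (SE 0.66) for Tlr4. For Myd88 it was 0.79 (SE 0.19), the smallest of the 4 with the smallest standard error. By edgeR's quasi-likelihood test the adjusted p was 0.066 for Myd88, 0.069 for Gsdmd, 0.082 for Pycard and 0.10 for Tlr4, so that 0 of 9 members were called, as for 0% of all genes. At an unadjusted p under 0.05 there were 4 of 9 members, against 25.3% of all genes, and 3 of 9 against 18.8% without Comb replicate 3.

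DESeq2 called the same 4 genes higher, 4 of 9 against 14.9% of all genes, with adjusted p-values of 0.0024 for Myd88, 0.0037 for Gsdmd, 0.0094 for Pycard and 0.024 for Tlr4. Without Comb replicate 3 the log2 differences were 0.63 for Myd88, 1.13 for Gsdmd, 1.03 for Pycard and 0.47 for Tlr4, and DESeq2 called only Myd88, with an adjusted p of 0.020, 1 of 9 against 5.44% of all genes. Without Comb replicate 1, in contrast, edgeR called 5 members, these 4 and Tlr2, with adjusted p-values between 0.0032 for Gsdmd and 0.045 for Tlr2. In that fit 28.5% of all genes were called, so the change from 0 calls was not particular to the members. The sign of the difference stayed the same for all 9 genes in each of the 12 fits that left out 1 tumor.

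The other 5 members were not called by either tool in the comparison of Comb with Con. Their log2 differences were 0.98 (SE 0.52) for Tlr2, 0.80 (SE 0.58) for Nlrp3, 0.37 (SE 0.20) for Casp1, -0.18 (SE 0.14) for Casp4 and -0.34 (SE 0.26) for Aim2, with edgeR adjusted p-values between 0.26 and 0.42. Without Comb replicate 3 they were 0.81, 0.13, 0.17, -0.10 and -0.10 in the same order. Over the 9 genes the median was 0.80, and 0.47 without Comb replicate 3, beside -0.03 over all genes. Without TMM scaling the median of all genes was -0.29, a shift to be read against any difference of Comb from Con. The differences of the members were then 1.72 for Pycard, 1.60 for Gsdmd, 1.55 for Tlr4, 0.65 for Tlr2, 0.50 for Myd88, 0.48 for Nlrp3, 0.08 for Casp1, -0.43 for Casp4 and -0.57 for Aim2.

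Myd88, Casp1 and Gsdmd were higher in all 3 Comb tumors than in all 3 Con tumors, 3 of 9 members against 11.7% of all genes, and Casp4 was lower without overlap, 1 of 9 against 13%. Without TMM scaling no member was higher without overlap, against 7.6% of all genes, and Casp4 and Aim2 were lower, 2 of 9 against 22.2%.

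**Figure D2:**
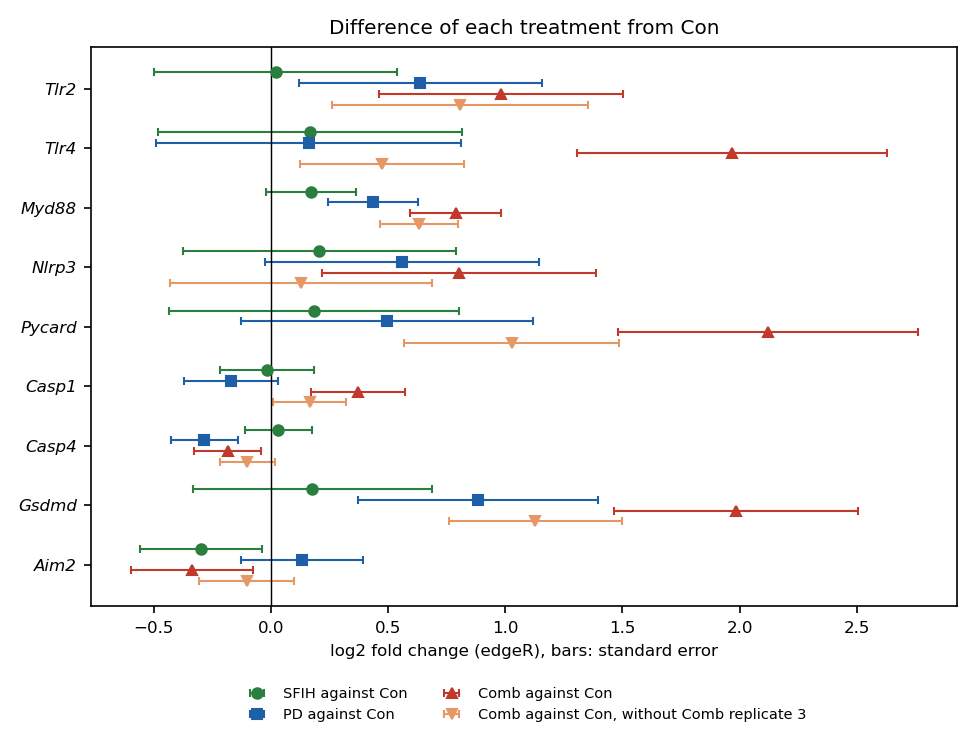
Log2 fold change of each gene for SFIH, PD and Comb against Con, and for Comb against Con without Comb replicate 3, fitted with edgeR; points are estimates and bars 1 standard error. The Comb estimates of Pycard (2.12), Gsdmd (1.98) and Tlr4 (1.97) move to 1.03, 1.13 and 0.47 without Comb replicate 3, and that of Myd88 moves from 0.79 to 0.63.

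Against each agent alone, Comb differed from PD by a log2 difference of 1.81 (SE 0.66) for Tlr4, 1.62 (SE 0.63) for Pycard and 0.54 (SE 0.20) for Casp1. These 3 had unadjusted p-values under 0.05, 3 of 9 against 18% of all genes, while edgeR called 0 of 9 at an adjusted p (0% of all genes) and DESeq2 0 of 9 (3.09%). Without Comb replicate 1, edgeR called Tlr4, Pycard and Gsdmd, 3 of 9 against 15.2% of all genes. The differences of Tlr4, Pycard and Casp1 were 0.32, 0.54 and 0.34 without Comb replicate 3, where 0 of 9 members had an unadjusted p under 0.05, against 9.02% of all genes.

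Against SFIH, the Comb differences ran from -0.22 for Casp4 to 1.93 for Pycard, and Pycard was at 0.84 without Comb replicate 3. edgeR called 0 of 9 (0% of all genes), with 4 of 9 at an unadjusted p under 0.05 against 19% of all genes, and 2 of 9 against 10.8% without Comb replicate 3. DESeq2 called 3 of 9 higher, against 8.62%, namely Gsdmd (adjusted p = 0.014), Pycard (0.028) and Myd88 (0.029). The log2 difference by edgeR was 1.81 for Gsdmd and 0.62 for Myd88, and 0.95 and 0.46 without Comb replicate 3. DESeq2 without Comb replicate 3 called 0 of 9, against 0.765% of all genes, and edgeR without Comb replicate 1 called 4 of 9, against 22.5%. The comparisons of Comb with Con, PD and SFIH share the Comb tumors and are not independent of each other.

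When the 6 tumors given anti-PD-1 antibody were set against the 6 without it, Gsdmd and Myd88 were higher and Casp4 was lower by DESeq2. The log2 difference was 1.35 (SE 0.36) for Gsdmd, 1.22 (SE 0.44) for Pycard, 0.53 (SE 0.14) for Myd88 and -0.25 (SE 0.10) for Casp4. Leaving out Comb replicate 3 gave 0.92, 0.67, 0.45 and -0.21 in the same order. By edgeR the lowest adjusted p was 0.098, for Myd88 and Gsdmd, so 0 of 9 were called (0% of all genes), and these 4 genes had unadjusted p-values under 0.05, 4 of 9 against 18.7% of all genes, and 3 of 9 against 19.5% without Comb replicate 3. DESeq2 called 3 of 9, against 9.31%, with adjusted p-values of 0.0068 for Myd88, 0.0087 for Gsdmd and 0.037 for Casp4. Without Comb replicate 3 it called Myd88 and Gsdmd, 2 of 9 against 7.3% of all genes, and without Comb replicate 1 edgeR called 4 of 9, against 17.1%.

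Myd88 was higher without overlap between these 6 and 6 tumors, 1 of 9 against 1.12% of all genes, and Casp4 was lower without overlap, 1 of 9 against 0.802%. The Casp4 difference was small, a mean of 47.8 CPM in PD and 51.2 CPM in Comb against 58.2 CPM in Con and 59.5 CPM in SFIH. On CPM without TMM scaling 0 of 9 were higher without overlap, against 0.661% of all genes, and Casp4 was again lower, 1 of 9 against 1.95%. Tlr2 had a log2 difference of 0.80 (SE 0.37) and Tlr4 one of 0.98 (SE 0.46), with edgeR adjusted p-values of 0.27 and 0.28, and without Comb replicate 3 these differences were 0.71 and 0.23.

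The 6 tumors with SFIH against the 6 without it gave log2 differences from -0.39 for Aim2 to 0.99 for Tlr4. edgeR called 0 of 9 at an adjusted p (0% of all genes) and found 0 of 9 at an unadjusted p under 0.05 (14.5% of all genes, and 0 of 9 against 15.5% without Comb replicate 3), and DESeq2 called 0 of 9 (2% of all genes). These were -0.27 for Aim2 and 0.24 for Tlr4 without Comb replicate 3. The interaction, which asks whether the effect of anti-PD-1 antibody differed with SFIH, was between -0.17 for Aim2 and 1.64 for Tlr4, and 0.15 for Tlr4 without Comb replicate 3. For the interaction 0 of 9 were called by edgeR (0% of all genes), 0 of 9 had an unadjusted p under 0.05 (2.55%, and 0 of 9 against 1.55% without Comb replicate 3) and 0 of 9 were called by DESeq2 (0.00745%).

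In the joint test of any difference among the 4 groups, edgeR called 0 of 9 (0% of all genes), with the lowest adjusted p, 0.13, for Gsdmd. Gsdmd, Myd88, Pycard and Tlr4 had an unadjusted p under 0.05, 4 of 9 against 17.8% of all genes, and DESeq2 called the same 4, against 12.6%. Only Gsdmd and Myd88 had an unadjusted p under 0.05, 2 of 9 against 16.2% of all genes, once Comb replicate 3 was left out. DESeq2 without Comb replicate 3 called 1 of 9, against 6.83% of all genes, and edgeR without Comb replicate 1 called 3 of 9, against 16.9%.

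Markers of macrophages and monocytes moved with the levels of several members. In bulk tumors, fewer cells of a type and less RNA per cell cannot be told apart. The summed level of 17 markers, Adgre1, Csf1r and C1qa among them, was 745 to 1235 CPM in the Con tumors, 1287 to 1355 CPM with SFIH and 1380 to 2607 CPM with anti-PD-1 antibody alone, and the Comb tumors had 1641, 4908 and 16615 CPM. None of the 17 was at 0 in all tumors. C1qa, C1qb and C1qc gave 4359, 4794 and 1906 of the 16615 CPM in Comb replicate 3. In Con replicate 1 they gave 233, 180 and 125 of 1162 CPM. Cx3cr1 went another way, at 22.6 CPM in Comb replicate 3 and at 21.3 to 54.3 CPM in Con. The 11 neutrophil markers found summed to 956 CPM in Comb replicate 3 and to between 58.7 and 148 CPM elsewhere, but Retnlg alone gave 905 of the 956 CPM. The other 10 summed to 51.4 CPM in that tumor, where S100a8 was at 8.39 CPM, and to between 57.1 and 129 CPM elsewhere.

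The summed levels of several other marker lists were also highest in Comb replicate 3. Dendritic cell markers summed to 1038 CPM in this tumor and to between 39.2 and 247 CPM elsewhere, T cell markers to 352 CPM and to between 24.2 and 134 CPM, and NK cell markers to 188 CPM and to between 61.3 and 103 CPM. Clec10a gave 763 of the 1038 CPM, while Zbtb46 was lowest in this tumor, at 2.16 CPM. Klrk1 and Klrb1c gave 70.9 and 42.5 of the 188 CPM, while Klra4 and Prf1 were lowest there, at 8.74 and 0 CPM. Of the 8 NK cell markers, 3 had a negative difference of Comb from Con. Fibroblast and pericyte markers were at 2204 to 2730 CPM in Con, 1085 to 3696 CPM under SFIH, 4219 to 7026 CPM in PD and 3024, 12285 and 24688 CPM in the Comb tumors. Within that list the collagen genes and Dcn gave most of the sum, while Pdgfra and Pdgfrb had log2 differences of Comb from Con of -0.27 and -0.74. Adipocyte markers were at 1285 CPM in Comb replicate 3 and 33.4 to 461 CPM elsewhere, skin markers at 534 CPM and 4.80 to 35.3 CPM, and erythroid markers at 2423 CPM and 65.2 to 1532 CPM. Epithelial and tumor cell markers were at 241 CPM in it and at 1104 to 1947 CPM elsewhere. Mki67 and Top2a gave most of that sum in the other tumors. The remaining markers of the list were highest in Comb replicate 3, with Krt8, Krt18, Krt19 and Krt7 at 30.5, 26.2, 28.4 and 29.7 CPM. Epcam, Cdh1 and Cldn4 were at 10.2, 18.8 and 9.94 CPM in the same tumor.

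Per 1000 counts on the macrophage and monocyte markers, a ratio chosen after the values were seen and given without a test, the Con tumors had 15.2 to 21.3 counts of Pycard, the SFIH tumors 15.5 to 18.8, the PD tumors 9.96 to 17.0 and the Comb tumors 10.4 to 13.8. Tlr4 had between 7.01 and 8.15 in Con and between 3.09 and 4.32 in Comb by the same ratio. Gsdmd had between 6.72 and 8.62 in Con, 6.83 and 7.89 in PD and 3.39 and 5.33 in Comb. On this ratio 7 of 9 members, all but Myd88 and Nlrp3, were lower in all Comb than in all Con tumors, and 0 of 9 were higher. Of all genes, 71.7% were lower and 0.787% higher without overlap by the same ratio, so the order was not particular to the members. The ratio also rests in large part on C1qa, C1qb and C1qc, whose share of the marker counts was larger in Comb replicate 3 than in Con replicate 1.

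Tlr2 had between 4.17 and 6.86 counts per 1000 marker counts in Con and between 0.937 and 3.63 in Comb. For Myd88 the ratio was 42.6 to 72.9 in Con and 7.27 to 56.4 in Comb, and for Casp4 it was 44.7 to 82.8 in Con and 2.70 to 33.4 in Comb. Casp1 had between 121 and 176 in Con and between 13.9 and 95.7 in Comb, Aim2 between 58.7 and 116 and between 2.68 and 43.5, and Nlrp3 between 1.37 and 1.81 and between 0.211 and 1.54. The part of these cells in the differences of the members was not tested.

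**Figure D3:**
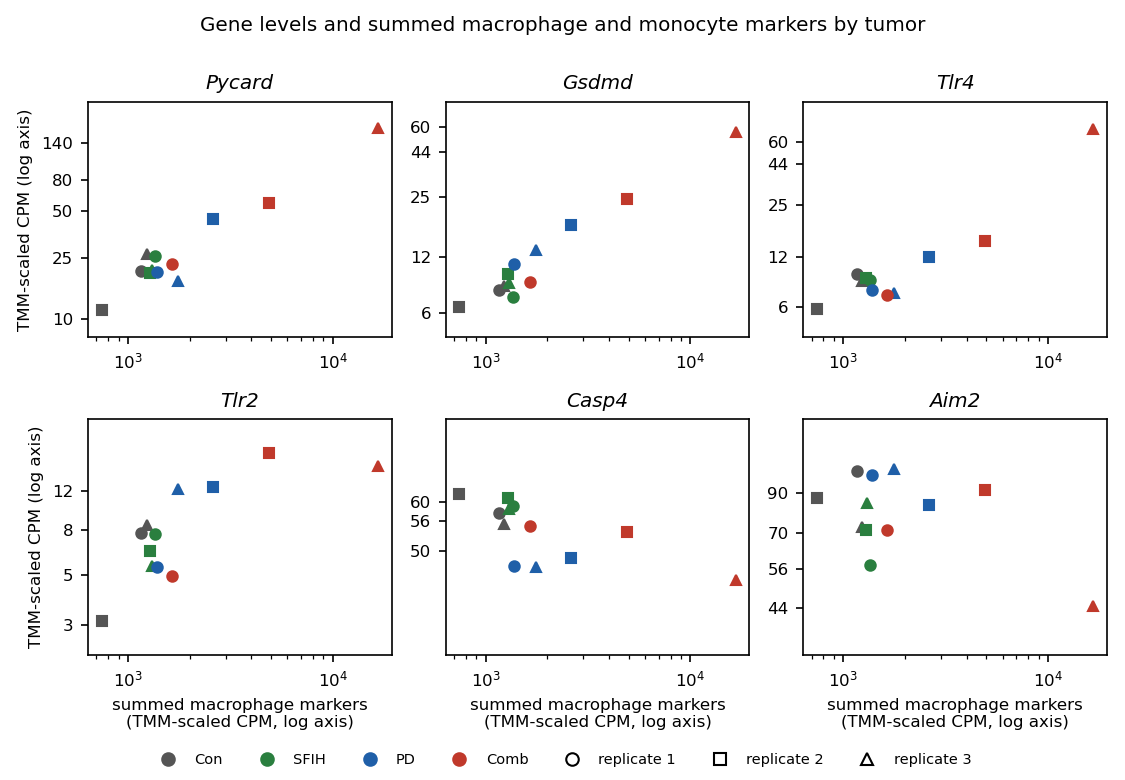
Level of Pycard, Gsdmd, Tlr4, Tlr2, Casp4 and Aim2 (TMM-scaled CPM, log axis) against the summed level of 17 macrophage and monocyte markers (TMM-scaled CPM, log axis) in each of the 12 tumors; colors mark the group and symbols the replicate number. Pycard, Gsdmd and Tlr4 are highest where the markers are highest, at 16615 CPM in Comb replicate 3, where Casp4 and Aim2 are lowest.

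By Pearson's r on log2(CPM + 1) over the 12 tumors, Tlr4, Pycard and Gsdmd gave the 3 highest values among the pairs of members. It was 0.95 between Tlr4 and Pycard (Spearman's rho 0.71), 0.93 between Pycard and Gsdmd (rho 0.48) and 0.91 between Tlr4 and Gsdmd (rho 0.55). Without Comb replicate 3 r was 0.92, 0.80 and 0.77 in the same order, so that Tlr4 with Pycard was still the highest pair, while Tlr2 with Gsdmd (0.83) came next. By rho the highest pairs were Tlr2 with Tlr4 and Myd88 with Gsdmd, both at 0.75 over the 12 tumors, and at 0.68 and 0.67 without Comb replicate 3. Casp4 had its lowest r with Gsdmd, -0.73, and with Myd88, -0.72, and Casp1 and Casp4 had an r of -0.22, which was 0.33 without Comb replicate 3. These values share the 12 libraries, their scaling and their treatment groups, and they are given as a description.

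The gene whose levels were most like those of each member over the 12 tumors was found in the same way. For Tlr2 it was Serpinb9 (r = 0.93), for Tlr4 Vamp8 (r = 0.99), for Myd88 the transcription factor gene Irf5 (r = 0.96) and for Pycard the transporter gene Slc15a3 (r = 0.99). For Gsdmd it was C1qtnf1 (r = 0.99), followed by Hsd17b11 (r = 0.99) and the apolipoprotein gene Apoe (r = 0.99). For Nlrp3 it was Rab10os (r = 0.97), for Casp1 Coq6 (r = 0.94), for Casp4 Gtpbp3 (r = 0.95) and for Aim2 the histone gene Hist1h2aa (r = 0.96).

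The next in order were Arrb2 and Irf8 for Tlr2, 2010107E04Rik and Apoc1 for Tlr4, Mustn1 and Twf2 for Myd88, Irgq and Bmp7 for Nlrp3, Ly9 and Clec4a3 for Pycard, Eif3k and Dnajc4 for Casp1, Nrxn2 and Gapdh for Casp4 and Rb1cc1 and Brd7 for Aim2. After the group means had been subtracted, Serpinb9 was still among the 3 most alike for Tlr2 (r = 0.95), Vamp8 for Tlr4 (r = 0.99), Rab10os for Nlrp3 (r = 0.99), C1qtnf1 for Gsdmd (r = 0.99) and Rb1cc1 for Aim2 (r = 0.98). Of these, Rab10os and C1qtnf1 were still first, while Rnf139, Hes6 and Rb1cc1 came first for Tlr2, Tlr4 and Aim2. For Casp1, Casp4, Myd88 and Pycard, none of the 3 genes most alike on levels was among the 3. Without the 2 tumors farthest from the median of the member, r of the leading gene on levels lay between 0.85 for Coq6 with Casp1 and 0.97 for C1qtnf1 with Gsdmd.

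The members belong to wider pathways, for which 10 lists with 162 genes in all were written, members included. Of these, 142 were tested, and none was called by edgeR in any comparison of the 12 tumors. The 13 accessory and transport proteins of TLRs had the highest median difference of Comb from Con among the lists. Of them, 12 had a positive log2 difference and 11 an unadjusted p under 0.05, against 25.3% of all genes in either direction, DESeq2 called 10 higher, against 14.9%, and the median was 1.90, or 1.10 without Comb replicate 3. The DESeq2 counts of the lists that follow for Comb against Con are to be read against the same 14.9%, and those without Comb replicate 3, which were 2 higher for the accessory genes, against 5.44%. The lysosomal protease genes Ctsk and Ctss had log2 differences of 4.82 and 2.76, and 2.47 and 1.21 without Comb replicate 3. Ly96, which codes for the lipopolysaccharide-binding partner MD-2 of TLR4, was at 5.79 to 7.41 CPM in Con and at 13.4, 22.1 and 46.0 CPM in Comb, with a log2 difference of 2.06 (SE 0.49) or 1.44 without Comb replicate 3, and DESeq2's adjusted p at 0.0013.

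Of 12 TLRs, 9 were tested, and 8 of these had a positive difference of Comb from Con. DESeq2 called 3 of them higher, Tlr4, Tlr7 and Tlr1, with log2 differences of 1.84 for Tlr7 and 2.33 for Tlr1, and 1.27 and 1.20 without Comb replicate 3, where DESeq2 called 0 of the 9. Among the 26 adaptor and signaling genes, of which 14 were higher and 12 lower, the median was 0.08, and DESeq2 called 3 higher and 1 lower. Without Comb replicate 3 the median was -0.02, with 12 of 26 positive, and DESeq2 called 1 higher and 0 lower. Myd88, Irf5 (log2 difference 1.09, or 0.81 without Comb replicate 3) and the TLR4 adaptor Ticam2 (2.13, or 1.22) led this list in the joint test. Of 13 inhibitors of TLR signaling, DESeq2 called 4 higher and 1 lower, and 1 higher and 1 lower without Comb replicate 3. Trem2, Lilrb4a and Irak3, a kinase-like protein that holds back MyD88 signaling, had log2 differences of 3.48, 2.54 and 2.51, and 1.42, 1.15 and 1.38 without Comb replicate 3.

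Inflammasome sensors, with 9 of 13 tested, gave 0 calls in Comb against Con by either tool and 0 genes at an unadjusted p under 0.05, and their median was 0.10. When Comb replicate 3 was left out, the median was -0.09, and 1 gene had an unadjusted p under 0.05, against 18.8% of all genes. Mefv, Naip2 and Nlrc4 led that list, with log2 differences of 0.99, -0.29 and 1.09. Of 16 assembly factors and regulators, 14 had a positive difference, and DESeq2 called 5 higher, or 4 without Comb replicate 3. The thioredoxin-binding NLRP3 partner Txnip had a difference of 2.61, or 1.36 without Comb replicate 3, Casp8 one of 1.07 and the guanylate-binding protein gene Gbp5 one of 0.66. Casp8 was higher in all Comb (77.8 to 102 CPM) than in all Con tumors (37.8 to 50.3 CPM) and had 0.98 without Comb replicate 3.

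Of 12 inflammatory caspases and pore formers, 6 were tested, and DESeq2 called Gsdmd and Ninj1 higher, and 1 of the 6 without Comb replicate 3. Ninj1, whose product ruptures the membrane after pore formation, had a log2 difference of 2.78, and 1.69 without Comb replicate 3. Dfna5, the gene for gasdermin E, had -0.45 in Comb, or -1.28 without Comb replicate 3, and -2.32 in PD at 0.273 to 3.37 CPM. Among 11 cytokines, receptors and blockers, DESeq2 called 5 higher in Comb, and 1 without Comb replicate 3. Il18r1, a chain of the interleukin-18 receptor, was at 0.877 to 0.903 CPM in the Con and 0.669 to 1.25 CPM in the SFIH tumors, and at 3.30 to 6.55 CPM in the PD and 2.82 to 11.2 CPM in the Comb tumors, so that all anti-PD-1 tumors were above all others. DESeq2 gave Il18r1 an adjusted p of 2.5e-06 for the 6 tumors with against the 6 without anti-PD-1 antibody, and edgeR 0.097. The substrate gene Il18 had a log2 difference of Comb from Con of 1.98 and the protease inhibitor gene Serpinb1a one of 2.21, and 1.17 and 1.12 without Comb replicate 3.

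Of 13 cytosolic DNA sensors, the group of Aim2, DESeq2 called 2 higher in Comb than in Con, and 1 without Comb replicate 3. The median of this list was 0.10 with 10 of 13 genes positive, and 0.31 with 12 of 13 positive without Comb replicate 3. The DNase gene Trex1 had a difference of 1.01, Pyhin1 one of 0.85 and Tmem173, which codes for STING, one of 0.95, and the last was 0.31 without Comb replicate 3. Of 26 genes that TLR signaling induces, 20 had a positive difference, DESeq2 called 8 higher, or 4 without Comb replicate 3, and the median was 0.76. Cd86 and Marcksl1 had 2.53 and 1.26, or 1.48 and 0.81 without Comb replicate 3. Lcn2, a siderophore-binding protein gene, had -1.15 in Comb and -1.32 in the 6 tumors with anti-PD-1 antibody, where DESeq2 gave an adjusted p of 0.0033. Over all genes tested, 48.0% had a positive difference of Comb from Con.

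**Figure D4:**
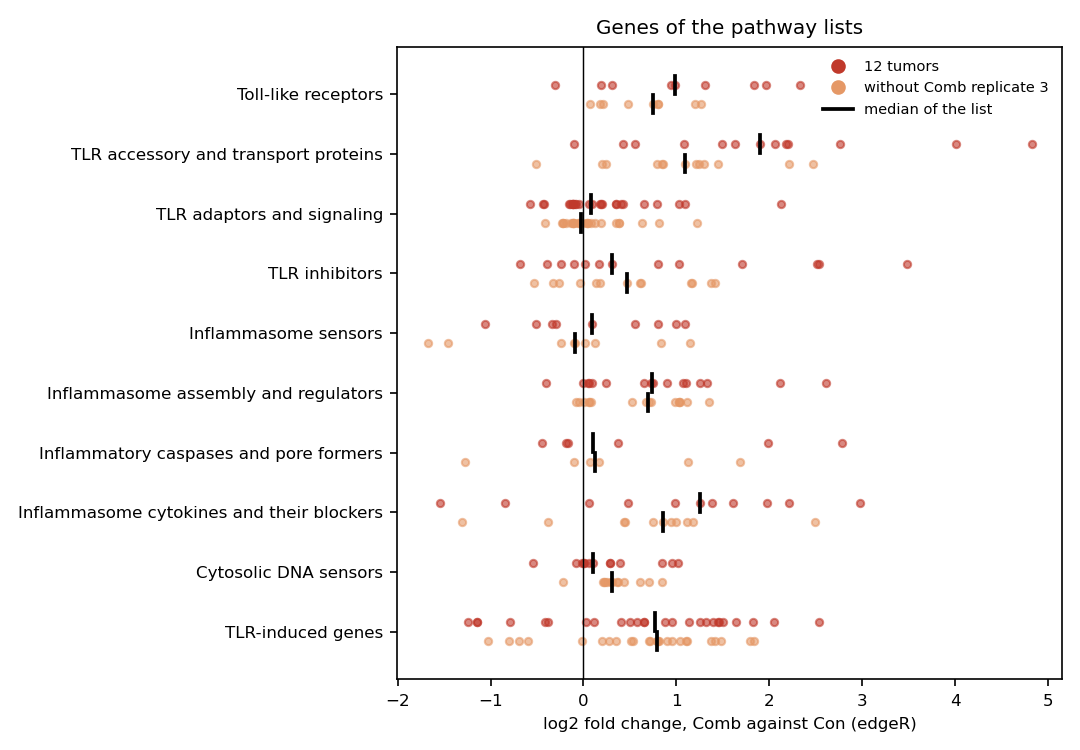
Log2 fold change of Comb against Con for each tested gene of the 10 pathway lists, members included, with all 12 tumors and without Comb replicate 3, fitted with edgeR; points are genes and black bars the median of a list. The median of the TLR accessory list moves from 1.90 to 1.10 without Comb replicate 3, and that of the inflammasome sensors from 0.10 to -0.09.

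In PD against Con and SFIH against Con, DESeq2 called 0 genes of any of the 10 lists, against 0.0447% and 0.0298% of all genes, and edgeR also called 0. At most 4 genes of a list had an unadjusted p under 0.05 in PD against Con and at most 1 in SFIH against Con, where 3.99% and 2.25% of all genes did. Leaving out Comb replicate 3, these were at most 5 and 3 genes of a list, against 10.7% and 7.49% of all genes, and DESeq2 called 1 gene in each of 2 lists in PD against Con and 1 gene of 1 list in SFIH against Con, against 0.5% and 0.939% of all genes. All 13 accessory genes had a positive difference of PD from Con, with a median of 0.51, beside 51.7% of all genes with a positive difference. Of these 13 genes, 0 had an unadjusted p under 0.05, and 4 without Comb replicate 3. For SFIH 7 of 13 were positive, with a median of 0.12, beside 53.0% of all genes. The inflammasome sensors had a median of 0.13 for PD and -0.30 for SFIH, the latter with 2 of 9 positive.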

How the data were processed

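The authors deposited raw read counts per gene symbol for 12 tumors, 3 per group, from QuantSeq 3′ mRNA-Seq libraries. The aligner, counter and genome build are not given in the sources used here. Each column was assigned to its group from the sample labels. The sources used here do not tie tumors to individual mice, so p-values measure the spread between these tumors. Reads were counted without molecular identifiers, and totals were between 7870741 and 12261032.

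Genes were kept by filterByExpr (13464 genes) and fitted with edgeR 4.0.16 in R 4.3.3, all 12 tumors in 1 quasi-likelihood fit with TMM scaling and a coefficient per group. Tests were two-sided, and p-values were adjusted by Benjamini-Hochberg over all genes tested at a threshold of 0.05. DESeq2 1.42.0, other scalings and filters, fits of the compared groups alone, a replicate block and fits without each tumor in turn were run as alternatives; DESeq2 without Comb replicate 3 was added after the data had been seen. Both tests were tested on simulated data. Replicates differed by at least 10.9 in chi-square per degree of freedom, so none was a copy of another.

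The members and lists were chosen with earlier results of these data known. The text names all 9 members, the 3 genes of each list with the smallest p in the joint test (no list had a gene with an edgeR adjusted p under 0.05) and the 3 genes most like each member by Pearson's r on log2(CPM + 1). Promoter windows came from a RefSeq table on GRCm38.p6. Figures were drawn with matplotlib 3.10.9.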

Additional observations from a re-analysis of the deposited data

How the results depend on the processing

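The number of members called by edgeR was 0 in all 9 comparisons, and it stayed at 0 under the other scalings and filters, and in fits of the compared groups alone, which were made for the 5 comparisons of 2 groups. DESeq2 called 4 members in Comb against Con, 3 in Comb against SFIH, 3 with against without anti-PD-1 antibody and 4 in the joint test, and without Comb replicate 3 it called 1, 0, 2 and 1 of them. Leaving out each tumor in turn, edgeR called 0 to 5 members in Comb against Con, 0 to 3 in Comb against PD, 0 to 4 in Comb against SFIH, 0 to 4 with against without anti-PD-1 antibody and 0 to 3 in the joint test. Each of the higher counts came without Comb replicate 1, where 3943, 2100, 3118, 2370 and 2344 of 13856 genes were called in the same order, and the cause was not tested. Same-numbered tumors deviated together in 6 of 18 pairs (r from -0.29 to 0.41). Pairs with different numbers were not set beside them, so these values cannot tell whether the numbers pair the tumors. With the replicate number as a block, 0 members were called in every comparison.

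The log2 differences the text gives of members, all 9 of them in 5 comparisons, 4 in Comb against SFIH and 2 each for SFIH against none and the interaction, were recomputed. Of 1042 values, 992 kept their direction and side of the threshold, 28 passed it only under the alternative and 22 changed sign. Without TMM, Myd88 moved from 0.53 to 0.33 with against without anti-PD-1 antibody and Casp4 from -0.25 to -0.43, Casp4 in Comb against PD was -0.053, Casp1 with against without anti-PD-1 antibody -0.091 and Aim2 -0.11. DESeq2 without Comb replicate 3 gave Nlrp3 -0.42 in Comb against PD and Aim2 0.082 in the interaction. Over fits without 1 tumor, SFIH against Con ran from -0.32 to 0.26 for Tlr2, -0.024 to 0.30 for Tlr4, -0.15 to 0.42 for Nlrp3, -0.095 to 0.46 for Pycard, -0.12 to 0.11 for Casp1 and -0.011 to 0.067 for Casp4. PD against Con ran from -0.10 to 0.29 for Tlr4 and -0.036 to 0.77 for Pycard, Comb against PD from -0.43 to 0.62 for Nlrp3, with against without anti-PD-1 antibody from -0.083 to 0.17 for Aim2, and the interaction from -0.43 to 0.064 for Aim2. At 9 to 42 counts, Nlrp3 was left out by the minimum of 50 counts on average and is limited by depth.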
